A study of Mus musculus with 6 samples.

Results

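Alpha cell marker genes were followed in pancreatic islets of mice that lacked Ffar3 and of wild-type mice. The 7 genes, Irx1, Irx2, Pou3f4, Ttr, Gc, Dpp4 and Tmem27, were chosen by symbol as markers of the glucagon-secreting islet cells, and each was found on 1 of the 23179 gene rows. Ffar3 encodes a cell-surface receptor that short-chain fatty acids activate. Both groups were male C57BL/6J mice aged 10 to 14 weeks, with the genotype Ffar3-/- in the knockout (KO) libraries and wildtype in the others (WT). Each group had 3 RNA sequencing libraries, described as biological replicates, and each library was made from islets pooled from 2 pancreata. The sources used here do not say how the Ffar3 allele was made or which part is deleted. Values are FPKM, which divides fragment numbers by transcript length and library size, so levels can be set side by side between genes of a library, while levels between libraries depend on the scaling.

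Alpha cells release glucagon when blood glucose is low and when amino acids are high, and they make up the smaller share of the endocrine cells of a mouse islet, beside the more numerous beta cells. Irx1 and Irx2 are homeobox genes of the Iroquois family that in the mouse islet are expressed mainly in alpha cells. None of the 7 genes is used by alpha cells alone in the body. Ttr and Gc encode plasma carrier proteins made mostly by the liver, Dpp4 is also found on lymphocytes and many epithelia, and Tmem27 is also expressed in beta cells and in the kidney. In whole islets, fewer cells of a type and less RNA per cell cannot be told apart.

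Ffar3 was listed at 0, 0 and 0.105 FPKM in KO replicates 1, 2 and 3 and had 4.69, 5.26 and 6.68 FPKM in WT replicates 1, 2 and 3, so the targeted gene matched all 6 labels. Transcripts of 27 digestive enzyme and acinar genes, products of the exocrine pancreas, made up 6.45%, 38.5% and 54.2% of all FPKM in KO replicates 1, 2 and 3, against 9.98%, 6.71% and 9.08% in the WT libraries. KO replicates 2 and 3 thus stand apart from the other 4 libraries, and the results on the markers are also given for KO replicate 1 alone. Glucagon (Gcg), the defining alpha cell transcript, was present in every library, at 12436, 8534 and 6474 FPKM in KO and 18617, 22807 and 19486 FPKM in WT. Total depth is unknown. The FPKM value of 1 fragment, read from the commonest ratio among values under 0.06 FPKM, put the fragments behind 1 FPKM in KO replicates 1, 2 and 3 at 119%, 89.4% and 59.5% of those in WT replicate 1.

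The promoters of Gc and Tmem27 are shown with the longest run of letters that they share, while Tmem27 fell in KO and Gc did not pass the test. Each is a RefSeq window of 300 bases on GRCm38, the assembly that mm10 denotes, from 250 bases before to 50 bases after the annotated gene start, written 5′ to 3′ on the gene's strand. Capitals mark GTTAATNATTAAA, the longest run that the windows share on the gene strand with at most 1 differing base, which is written N. The shared run begins at -52 from the start of Gc, on the minus strand at chr5:89457849-89458148, and at -54 from the start of Tmem27, on the plus strand at chrX:164089937-164090236.
Gc: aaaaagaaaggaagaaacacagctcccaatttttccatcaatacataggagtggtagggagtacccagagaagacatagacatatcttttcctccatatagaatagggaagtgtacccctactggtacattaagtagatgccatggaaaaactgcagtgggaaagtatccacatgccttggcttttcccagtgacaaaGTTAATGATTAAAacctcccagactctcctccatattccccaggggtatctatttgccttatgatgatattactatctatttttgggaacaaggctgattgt
Tmem27: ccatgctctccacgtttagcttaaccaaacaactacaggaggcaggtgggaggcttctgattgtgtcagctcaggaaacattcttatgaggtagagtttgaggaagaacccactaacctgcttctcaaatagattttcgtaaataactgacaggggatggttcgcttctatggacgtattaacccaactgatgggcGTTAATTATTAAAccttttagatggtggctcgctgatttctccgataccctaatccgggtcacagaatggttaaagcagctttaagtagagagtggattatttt
Searched on both strands, the run of 13 letters was found in 8 of 32851 such windows (0.0244%), these windows included. Because the run was taken from the Gc and Tmem27 windows, its presence in both was fixed in advance. No other pair of windows was compared, so the share says nothing particular about these genes. Windows were matched for 5 of the 7 genes, and those of Irx2, Pou3f4 and Dpp4 and a second window of Tmem27 had no match.

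Of the 7 genes, 6 averaged 1 FPKM or more and entered the limma test on log2(FPKM + 1), a scale that understates changes of low values. With Benjamini-Hochberg adjustment over the 11669 genes tested, Irx1, Irx2 and Tmem27 fell in KO, none rose, and Ttr, Gc and Dpp4 did not pass the threshold of 0.05. Pou3f4 was too low to be tested. Across all tested genes 39.9% were called, 19.6% as lower and 20.3% as higher in KO, so 3 lower of 6 is to be read against that share. Over all tested genes the median log2 difference was -0.01, and for beta, delta, PP and pan-endocrine gene lists -0.33, -0.62, -0.34 and -0.29. The median of the 6 alpha cell markers was -0.41, so a fall of this size was not particular to them. With KO replicate 1 alone against WT, where 11.5% of tested genes were called lower and 14.8% higher, 0 of the 6 were called lower, 1 (Gc) was called higher, and the median was -0.13. That comparison has a single KO library, which is taken to vary like the WT libraries. An exact two-sided permutation test of a single gene cannot go below p = 0.1 with 3 libraries against 3, and Irx1, Irx2, Ttr and Tmem27 each reached that value. The groups did not overlap for these 4 genes, all lower in KO. Over all tested genes 28.5% had KO values all below the WT values, and 56.3% had groups that did not overlap in either direction. None of the markers was called in a fit that included the acinar level, where 10.6% of tested genes were called lower. With equal sums outside the acinar list, where 15.4% were called lower, Irx1, Irx2 and Tmem27 had larger log2 differences of -0.58, -0.45 and -0.53 but missed the threshold (adjusted p = 0.051, 0.056 and 0.073). With no filter on low values, where 12.0% were called lower, their differences were as reported and the adjusted p was 0.062, 0.073 and 0.074.

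**Figure D1:**
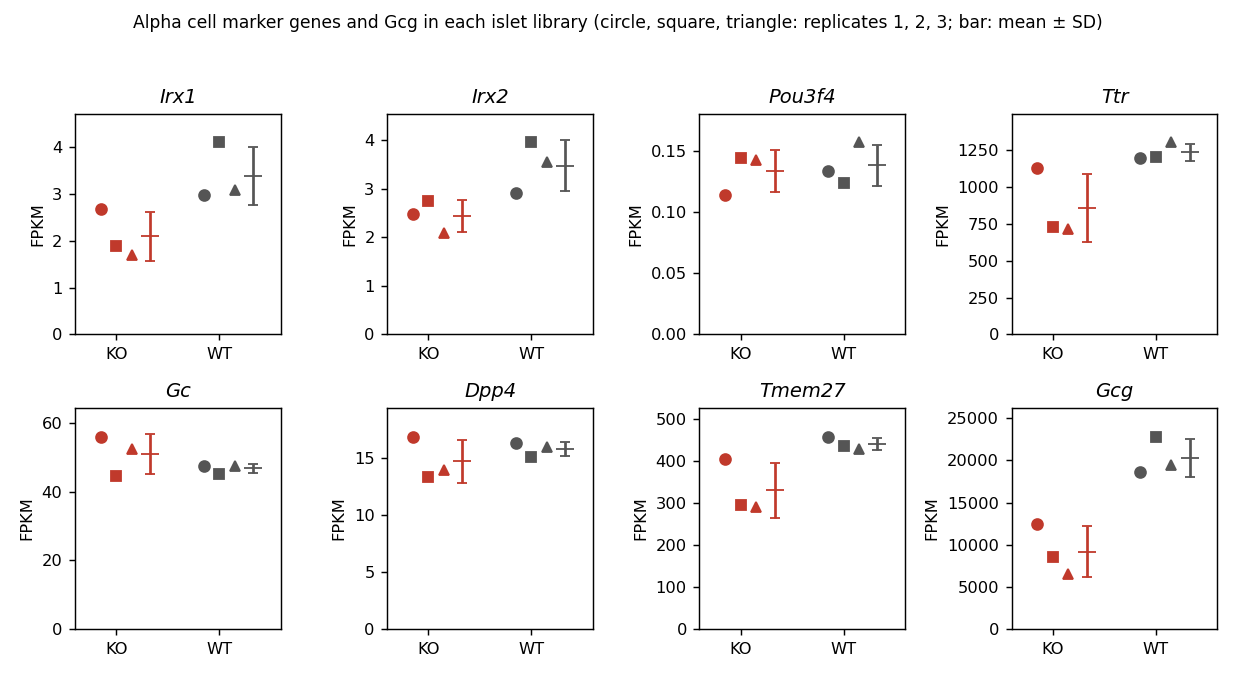
FPKM of the 7 marker genes and of Gcg in each library, on a linear axis from 0, with KO in red on the left and WT in grey on the right, symbols for replicates and a bar for mean ± SD (n = 3 per group). The KO libraries lie below the WT libraries for Irx1, Irx2, Ttr, Tmem27 and Gcg and overlap them for Pou3f4, Gc and Dpp4.

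Irx1 and Irx2 lie 661 kb apart on chromosome 13 of GRCm38, at chr13:71958232-71963723 and chr13:72624430-72634196. Irx1 was at 2.69, 1.90 and 1.71 FPKM in KO libraries, against 2.99, 4.11 and 3.09 FPKM in WT libraries. All KO values lay below all WT values, with KO replicate 1 close under WT replicate 1. The fall was to 2.097 ± 0.522 FPKM in KO, against 3.40 ± 0.618 FPKM in WT (mean ± SD, n = 3 each), a log2 difference of -0.51 (SE 0.15, 95% interval -0.87 to -0.15, limma adjusted p = 0.034). Irx2 was at 2.47, 2.75 and 2.09 FPKM in KO libraries and 2.92, 3.96 and 3.56 FPKM in WT libraries. Here too the groups did not overlap, and KO replicate 2, which had high acinar transcripts, was the highest of the KO libraries. Irx2 fell to 2.44 ± 0.335 FPKM in KO, against 3.48 ± 0.524 FPKM in WT (log2 difference -0.38, 95% interval -0.66 to -0.10, adjusted p = 0.040).

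Both Iroquois calls lay close to the threshold. Irx1 had log2 differences from -0.64 to -0.40 and Irx2 from -0.47 to -0.30 with single libraries left out. The call of Irx1 was lost without KO replicate 2 or 3 (adjusted p = 0.091 and 0.077) and without WT replicate 1, 2 or 3 (0.066, 0.11 and 0.074). That of Irx2 was lost without KO replicate 1 or 3 (0.054 and 0.091) and without WT replicate 2 or 3 (0.13 and 0.12). With KO replicate 1 alone the log2 differences were -0.24 for Irx1 and -0.36 for Irx2, neither called (adjusted p = 0.27 and 0.10), while a fit that included the acinar level gave -0.28 and -0.32 (0.16 and 0.15). Of the other Iroquois genes, none reached the filter. Irx3, the highest of them, was at 0.787, 0.673 and 1.01 FPKM in KO and 0.516, 0.347 and 0.310 FPKM in WT, opposite in direction to Irx1 and Irx2, and was called higher when no filter on low values was used (log2 difference 0.39, adjusted p = 0.027). Irx4, Irx5 and Irx6 were at 0.101 FPKM or less in every library.

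Pou3f4, also known as Brn4, is a POU homeobox factor that appears early in the developing alpha cell, and lies at chrX:110814379-110819108. It was at 0.114, 0.144 and 0.143 FPKM in KO libraries and 0.134, 0.124 and 0.157 FPKM in WT libraries. The groups overlapped, and their means were 0.134 ± 0.0170 FPKM in KO and 0.138 ± 0.0170 FPKM in WT. Divided by the relative value of 1 fragment, the levels came within 0.1004 of the whole-number proportions 3, 3 and 2 in KO replicates 1, 2 and 3 and 3, 3 and 4 in WT. Of the 12 sets tried these lay nearest to whole numbers, and the fragments themselves could be a multiple of them. If they are that few, no difference in Pou3f4 was detectable at this depth. Without a filter its log2 difference was -0.01 (adjusted p = 0.89), and the 3 other POU3 genes were at 0.538 FPKM or less in every library.

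Ttr encodes transthyretin, which carries thyroid hormone and, together with the retinol-binding protein Rbp4, vitamin A. It was the most abundant of the 7 genes, with rank 43 among all rows. It was at 1125, 729 and 717 FPKM in KO libraries, against 1195, 1203 and 1301 FPKM in WT libraries. KO replicate 1 lay just under the lowest WT library, while KO replicates 2 and 3, those with high acinar transcripts, were at 59.1% and 58.2% of the WT mean. The means were 857 ± 232 FPKM in KO and 1233 ± 59.1 FPKM in WT (log2 difference -0.56, SE 0.19, 95% interval -1.01 to -0.10, adjusted p = 0.056). Without KO replicate 1 Ttr was called lower (-0.77, adjusted p = 0.0012), and it was also called with a robust variance prior (0.036) and with array weights (0.014). In KO replicate 1 alone its log2 difference was -0.13 (adjusted p = 0.30). Rbp4 averaged 72.3 ± 20.1 FPKM in KO and 101 ± 8.89 FPKM in WT, with no overlap (adjusted p = 0.058, and 0.0017 without KO replicate 1). The ratio of Ttr to Rbp4 was 11.9 ± 0.685 in KO and 12.3 ± 1.39 in WT, with an exact permutation p = 0.8.

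Gc encodes the vitamin D-binding protein, which also binds free actin, and spans chr5:89417511-89457898. It was at 56.0, 44.5 and 52.5 FPKM in KO libraries and 47.6, 45.2 and 47.6 FPKM in WT libraries. KO replicates 1 and 3 lay above all WT libraries and KO replicate 2 below them. The means were 51.0 ± 5.87 FPKM in KO and 46.8 ± 1.35 FPKM in WT, a log2 difference of 0.12 with a 95% interval of -0.09 to 0.32 (adjusted p = 0.31). Gc was called higher without KO replicate 2 (0.21, adjusted p = 0.045) and in KO replicate 1 alone (0.25, adjusted p = 0.031). Of its relatives, Alb, Afp and Afm, which encode albumin, alpha-fetoprotein and afamin, none passed the filter, with at most 0.986 FPKM in any library. The vitamin D receptor gene Vdr was at 44.2, 30.4 and 32.5 FPKM in KO and 37.5, 38.7 and 42.3 FPKM in WT and did not pass (log2 difference -0.16, adjusted p = 0.37).

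**Figure D2:**
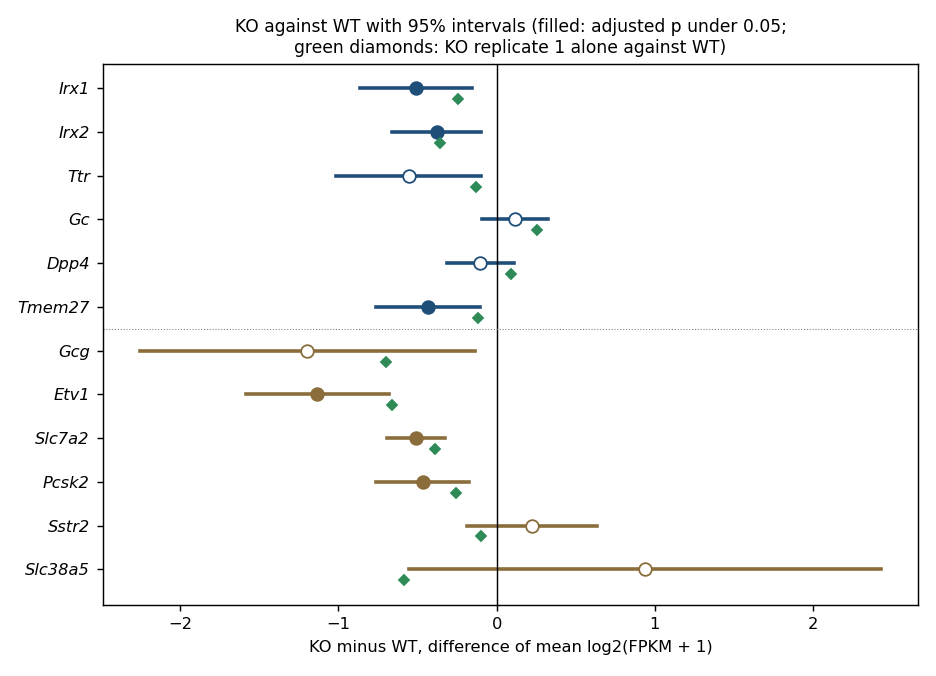
Difference between KO and WT on the scale of log2(FPKM + 1) for the 6 tested marker genes (blue) and 6 of the 8 other tested alpha cell genes (brown), as circles with 95% intervals, filled where the limma adjusted p was under 0.05, and for KO replicate 1 alone against WT as green diamonds. Irx1, Irx2, Tmem27, Etv1, Slc7a2 and Pcsk2 are filled, and the diamonds of Ttr and Tmem27 lie nearer 0 than their circles, at -0.13 and -0.12.

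Among the surface proteins, Dpp4 encodes the dipeptidyl peptidase that inactivates the incretins GLP-1 and GIP. It was at 16.9, 13.4 and 14.0 FPKM in KO libraries and 16.3, 15.1 and 16.0 FPKM in WT libraries. KO replicate 1 was the highest of all libraries and the other KO libraries the lowest, so the groups overlapped. The means were 14.7 ± 1.88 FPKM in KO and 15.8 ± 0.617 FPKM in WT (log2 difference -0.10, 95% interval -0.31 to 0.11, adjusted p = 0.38). Of the 19 alternatives tried, Dpp4 was called lower only without KO replicate 1 (-0.20, adjusted p = 0.035). Dpp4 also marks T cells, whose defining gene Cd3e was at 1.30, 2.01 and 0.127 FPKM in KO and listed at 0 in every WT library. The 7 macrophage and lymphocyte genes summed to 34.9, 80.3 and 15.4 FPKM in KO and to between 14.4 and 15.2 FPKM in WT. They did not move as one. Of the 6 tested, 1 was called higher and 5 were not called, beside 20.3% of all tested genes called higher. KO values lay all above WT for 3 of the 6 and all below for 1, beside 56.3% of all tested genes without overlap in either direction. The part of these immune genes in the level of Dpp4 was not tested.

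Dpp4 lies 62.2 kb from Gcg on chromosome 2, at chr2:62330073-62412315, with Fap, a related protease, 17.3 kb on the other side of Gcg. Gcg averaged 45.1% of the WT mean in KO and Dpp4 93.1%, while Fap was at 0.0876 FPKM or less in all libraries. Of the 5 tested genes of this stretch, Slc4a10, Dpp4, Gcg, Ifih1 and Gca, 0 were called by limma at an adjusted p under 0.05, with adjusted p = 0.052 for Slc4a10 and 0.070 for Gcg. Among the 6 tested proteases and inactive relatives of the Dpp4 family, Dpp8, Dpp9 and Dpp10 fell and Prep rose, beside 39.9% of all tested genes called in either direction. Prep, the cytosolic prolyl endopeptidase, rose to 12.4 ± 0.982 FPKM in KO, against 8.35 ± 0.260 FPKM in WT (log2 difference 0.52, adjusted p = 0.0023). Dpp9 fell to 27.8 ± 1.10 FPKM in KO, against 35.7 ± 1.20 FPKM in WT (log2 difference -0.35, adjusted p = 0.0043). Dpp10 lost its call without WT replicate 1 (adjusted p = 0.054), and Dpp8 without WT replicate 1 or 3 (0.064 and 0.058). With equal means of the pan-endocrine genes all 3 lost their calls, at -0.02 for Dpp8, -0.10 for Dpp9 and -0.29 for Dpp10 (adjusted p = 0.91, 0.59 and 0.070), while Prep was still called higher (0.75, adjusted p = 0.013). Dpp8 was also not called with the acinar level in the fit (0.059), nor Dpp10 in KO replicate 1 alone (-0.28, adjusted p = 0.077).

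Tmem27, now named Cltrn, encodes collectrin, a membrane protein that in the kidney carries amino acid transporters to the cell surface. It spans chrX:164090187-164118859. Tmem27 was at 405, 295 and 290 FPKM in KO libraries, against 458, 435 and 429 FPKM in WT libraries. All KO values lay below all WT values, and the gap was widest in KO replicates 2 and 3, at 66.9% and 65.8% of the WT mean against 91.9% in KO replicate 1. Tmem27 fell to 330 ± 65.2 FPKM in KO, against 441 ± 15.2 FPKM in WT (log2 difference -0.43, SE 0.14, 95% interval -0.76 to -0.10, adjusted p = 0.045). The call was lost without KO replicate 2 or 3 (0.12 and 0.10), without WT replicate 1, 2 or 3 (0.14, 0.11 and 0.11) and in KO replicate 1 alone (-0.12, adjusted p = 0.25).

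Among genes linked to collectrin, the neutral amino acid transporter gene Slc6a19 fell. Bace2, which encodes the protease that sheds collectrin from beta cells, and Snap25 did not pass (log2 differences -0.18 and -0.26, adjusted p = 0.15 and 0.058 in limma). Slc6a19 was at 2.43, 2.83 and 2.32 FPKM in KO and 3.86, 3.09 and 4.66 FPKM in WT (log2 difference -0.46, adjusted p = 0.031). Slc6a19 lost its call without KO replicate 1 or 3 (adjusted p = 0.051 and 0.070) and without WT replicate 1 or 3 (0.097 and 0.10). It was also not called with the acinar level in the fit (-0.47, adjusted p = 0.082), in KO replicate 1 alone (-0.49, adjusted p = 0.080), or with equal means of the pan-endocrine genes (-0.26, adjusted p = 0.25).

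The 7 genes spanned a wide range of levels in the order Ttr, Tmem27, Gc, Dpp4, Irx2, Irx1 and Pou3f4. Irx2 and Irx1 did not differ beyond their spread, and their ratio, Irx1 over Irx2, was 0.865 ± 0.204 in KO and 0.978 ± 0.0944 in WT (exact permutation p = 0.4). Tmem27 and Ttr kept a ratio of 0.390 ± 0.0255 in KO and 0.358 ± 0.0269 in WT (exact permutation p = 0.3). The ratio of Gc to Ttr was 0.0498, 0.0611 and 0.0732 in KO and 0.0398, 0.0376 and 0.0366 in WT, and that of Gc to Tmem27 was 0.138, 0.151 and 0.181 in KO and 0.104, 0.104 and 0.111 in WT. Both ratios were higher in every KO library than in any WT library, as were 52.1% of tested genes over Ttr and 51.1% over Tmem27, with the exact permutation p = 0.1 that is the smallest possible here. A ratio within a library does not depend on how libraries are scaled. These ratios were chosen after the values were seen.

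Profiles over the 6 libraries were also compared gene by gene, by the root mean square difference of log2(FPKM + 1) centred on each gene's mean. Among the tested markers Ttr and Tmem27 were nearest each other (0.10), Irx1 was nearest Tmem27 (0.14), Irx2 nearest Irx1 (0.16), and Gc and Dpp4 nearest each other (0.12). Ttr and Gc were the farthest pair (0.37). Over 7485 other genes of at least 5 FPKM, the nearest were Aard and Smarca1 for Irx1 (0.06 and 0.07), Serpinh1 and Jmjd6 for Irx2 (0.03 and 0.05), Vstm2l and P2ry1 for Ttr (0.05 and 0.06), and Pcp4 and Lsm5 for Tmem27 (0.02 and 0.03). Tmem126a and Osbpl1a were nearest Gc (0.04 each), and Oaz1 and Tspan7 nearest Dpp4 (0.02 and 0.03). With so many genes and 6 libraries, close neighbours are to be had for most profiles.

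A further 9 alpha cell genes were set beside the markers, and 8 of these passed the filter. Of the 8, Etv1, Slc7a2 and Pcsk2 fell and 0 rose in limma, where 19.6% of all tested genes were called lower and 20.3% higher, with a median log2 difference of -0.47. With equal means of 12 pan-endocrine genes Slc7a2 and Pcsk2 lost their calls (-0.26 and -0.22, adjusted p = 0.10 and 0.29). Etv1, an ETS transcription factor, was at 8.07, 5.02 and 4.14 FPKM in KO and 13.2, 13.8 and 13.1 FPKM in WT, a fall to 5.74 ± 2.06 FPKM in KO, against 13.4 ± 0.375 FPKM in WT (log2 difference -1.13, adjusted p = 0.0053). It was called lower in KO replicate 1 alone as well (-0.66, adjusted p = 0.0026), where the acinar share was low. Slc7a2, a transporter of cationic amino acids, was at 34.0, 27.9 and 31.7 FPKM in KO and 43.5, 46.1 and 44.5 FPKM in WT (log2 difference -0.51, adjusted p = 0.0038, and -0.39 with adjusted p = 0.0089 in KO replicate 1 alone). Pcsk2, the convertase that cuts proglucagon to glucagon and is shared by beta cells, fell by 0.47 on the log2 scale (adjusted p = 0.024). Its call was lost without KO replicate 2 (0.069) or WT replicate 1, 2 or 3 (0.092, 0.068 and 0.093). Pcsk2 kept its call with the acinar level in the fit (-0.32, adjusted p = 0.045), and its log2 difference was -0.26 in KO replicate 1 alone. Sstr2, a somatostatin receptor gene, did not pass (0.22, adjusted p = 0.32). Slc38a5, a glutamine transporter of alpha cells, was at 4.12, 15.8 and 36.0 FPKM in KO and 7.71, 5.53 and 6.95 FPKM in WT, highest where the acinar share was highest. It did not pass (log2 difference 0.94, adjusted p = 0.26), but was called lower when KO replicate 1 alone was set against WT (-0.58, adjusted p = 0.038).

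The glucagon gene had a larger log2 difference than any of the 7 markers. Gcg averaged 9148 ± 3028 FPKM in KO and 20303 ± 2211 FPKM in WT. The log2 difference of -1.20 did not pass in limma (SE 0.45, adjusted p = 0.070). In KO replicate 1 alone it was -0.70, and that library, at 61.3% of the WT mean, lay below every WT library. Without KO replicate 1 the log2 difference was -1.44, and Gcg was called lower (adjusted p = 0.0046). A robust variance prior left the difference at -1.20 and called it (SE 0.23, adjusted p = 0.0063). Gcg was also called with array weights (0.025), with the acinar level in the fit (-0.77, adjusted p = 0.012) and under equal sums outside the acinar list (0.022). In all, 7 of the 19 alternatives called Gcg lower and the others did not. The robust fit changed the variance prior alone, so the SE of Gcg and its call depended on that prior. Why the SE changed in the other fits was not tested. Per 1000 FPKM of Gcg, Ttr was at 90.4, 85.4 and 111 FPKM in KO and 64.2, 52.8 and 66.8 FPKM in WT. Per 1000 FPKM of Gcg, Gc was at 4.50, 5.22 and 8.11 FPKM in KO and 2.55, 1.98 and 2.44 FPKM in WT. Irx1 was at 0.216, 0.222 and 0.263 FPKM in KO and 0.161, 0.180 and 0.159 FPKM in WT on the same scale. All 7 markers were higher relative to Gcg in every KO library than in any WT library, by 1.40 times for Irx1 to 2.56 times for Gc. The same held for 92.4% of the tested genes other than Gcg, so 7 of 7 is no result about the markers. Among the other alpha cell genes Etv1 did not follow, at 0.649, 0.589 and 0.640 FPKM per 1000 of Gcg in KO and 0.709, 0.604 and 0.671 in WT, overlapping.

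**Figure D3:**
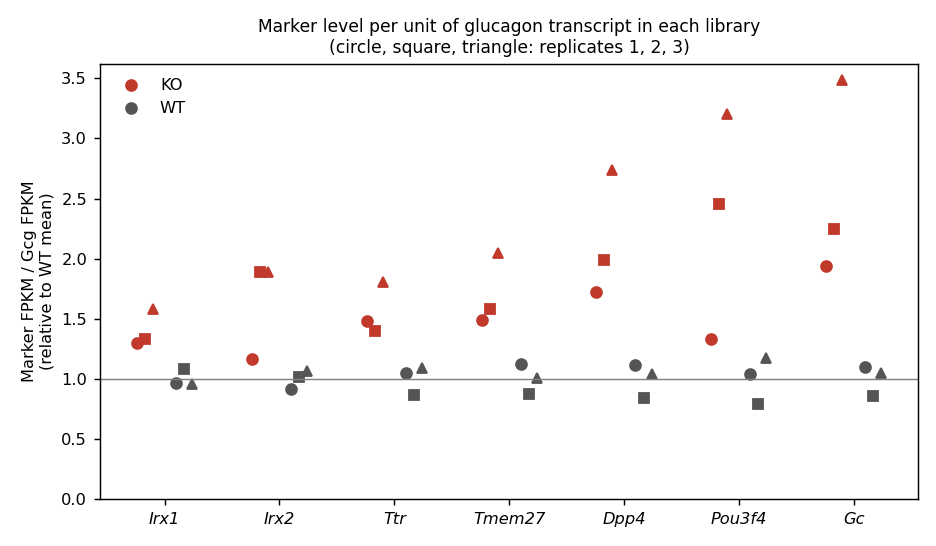
FPKM of each marker divided by that of Gcg in the same library, relative to the WT mean, on a linear axis from 0, with KO libraries in red to the left of WT libraries in grey and symbols for replicates. All KO points lie above the WT points of the same gene, from a mean ratio of 1.40 for Irx1 to 2.56 for Gc.

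Genes that act on proglucagon and its products were tested as a further group. Of 7 tested, Pcsk1, Pcsk2, Glp1r and Gcgr fell, beside 19.6% of all tested genes, and Gcg, Dpp4 and Gipr did not pass, while Gip was listed at 0 in every library. The glucagon receptor gene Gcgr fell to 11.7 ± 0.447 FPKM in KO, against 14.2 ± 1.04 FPKM in WT (log2 difference -0.26, adjusted p = 0.023), and lost its call without WT replicate 1 or 3 (0.088 and 0.093). Gipr, the receptor gene of a substrate of Dpp4, was at 27.3 ± 4.94 FPKM in KO and 26.9 ± 0.684 FPKM in WT (log2 difference 0.01, 95% interval -0.28 to 0.30, adjusted p = 0.97). Pcsk1 fell by 0.38 on the log2 scale (adjusted p = 0.021), and lost its call without WT replicate 1, 2 or 3 (0.079, 0.053 and 0.076), with the acinar level in the fit (0.082) and in KO replicate 1 alone (-0.20, adjusted p = 0.062). With equal means of the pan-endocrine genes all 4 lost their calls, at -0.12 for Pcsk1, -0.22 for Pcsk2, -0.36 for Glp1r and -0.02 for Gcgr (adjusted p = 0.43, 0.29, 0.072 and 0.91).

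Sums of genes of other cell types are given beside the markers. The 12 pan-endocrine genes, such as the granins Chga and Chgb, summed to 15567, 11794 and 12399 FPKM in KO and 16118, 15409 and 16346 FPKM in WT. The 5 delta cell genes summed to 4797, 2861 and 2720 FPKM in KO and 5507, 5550 and 5279 FPKM in WT. The 10 beta cell genes summed to 35917, 29286 and 32959 FPKM in KO and 39051, 37281 and 37496 FPKM in WT. Most of this was Iapp, at 33357, 27415 and 30945 FPKM in KO and 36606, 34745 and 34975 FPKM in WT. Called lower by limma were 5 of the 10 beta cell genes, 2 of 4 tested delta cell genes and 4 of the 12 pan-endocrine genes. The share over all tested genes was 19.6%, and 1 pan-endocrine gene was called higher. All 3 sums were lower in KO replicates 2 and 3 than in KO replicate 1, as were Ttr, Tmem27, Irx1, Gc, Dpp4 and Gcg. Exceptions were Pou3f4 and, in KO replicate 2, Irx2. The 27 acinar genes ran opposite to the 3 sums, at 26872, 268847 and 572126 FPKM in KO and 45107, 28788 and 40365 FPKM in WT. Amy2b, an amylase gene of that list, was listed at 0 in KO replicates 2 and 3 and was at 23.6 FPKM or more in the other 4 libraries. Why it was 0 where the acinar sums were highest was not tested. These zeros enter the acinar shares and the acinar level used in the fits. The 8 duct genes summed to 473, 589 and 691 FPKM in KO and to between 449 and 476 FPKM in WT. Most of this was Krt18 and Krt7, which averaged 376 and 121 FPKM in KO and 296 and 135 FPKM in WT. The sum therefore says little of the lower duct genes. Over the 7 tested the median log2 difference was 0.76, with 1 called higher and 6 not called, beside 20.3% of all tested genes called higher. With libraries set to an equal geometric mean of the pan-endocrine genes, which moved the median of all tested genes to 0.21, the log2 differences were -0.33 for Irx1, -0.19 for Irx2, -0.30 for Ttr and -0.18 for Tmem27, none of them called (adjusted p from 0.10 to 0.35). On that scale 3.21% of tested genes were called lower and 22.6% higher. On that scale Gc was called higher (0.36, adjusted p = 0.048), Etv1 was still called lower (-0.91, adjusted p = 0.0047), Gcg had a log2 difference of -0.94 (adjusted p = 0.091), and Dpp4 turned to 0.13 (adjusted p = 0.31). The part of the acinar transcripts in the levels of the markers was not tested beyond these fits.

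**Figure D4:**
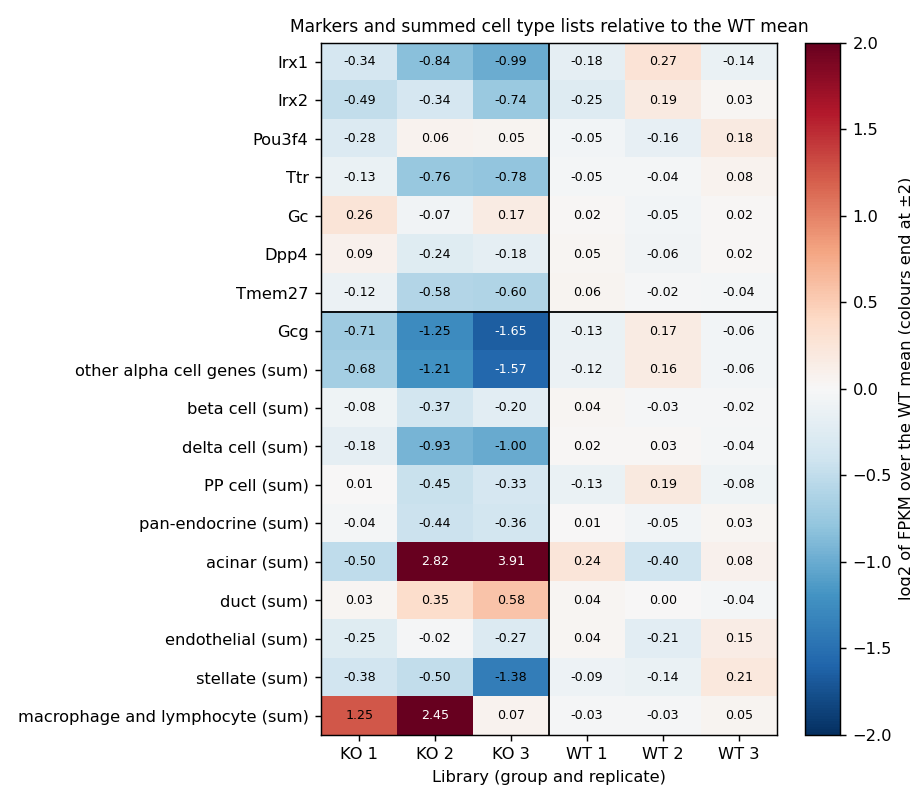
Log2 of FPKM over the WT mean in each library for the 7 markers (upper rows) and for Gcg and the summed FPKM of 10 gene lists (lower rows), with KO libraries on the left, the number printed in each cell and colours ending at ±2. The acinar sum is high in KO replicates 2 and 3 (268847 and 572126 FPKM) and the delta cell and pan-endocrine sums are low there, while Gc and Pou3f4 stay near the WT level.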

How the data were processed

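Pancreatic islet RNA was sequenced in 3 Ffar3 KO and 3 WT libraries, grouped and numbered by their titles and genotype labels. TopHat2 2.0.8b, Cuffdiff 2.1.1 and build mm10 are named in the submitters' processing notes. The sources used here give no gene annotation, strand setting or scaling. What the authors deposited was read as FPKM, the unit that Cuffdiff writes, since the values are decimals whose sums ran from 416935 to 1056340 and the headers name no unit. Median-of-ratios factors of the values lay between 0.995 and 1.00, so such a scaling may already be in them. FPKM is relative within a library, and fragments shared by overlapping genes are split by estimate.

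Values were not rescaled. With limma 3.58.1 in R 4.3.3, log2(FPKM + 1) of genes averaging 1 FPKM or more was fitted on group alone, with a trended prior and two-sided tests, with Benjamini-Hochberg adjustment over all 11669 tested genes and a threshold of 0.05, after a test on simulated data. The limma p-values rest on a gene's spread between these pooled samples and on the variance prior, which is drawn from genes of similar level. No library was a copy of another. List symbols absent from the files were matched through RefSeq synonyms, and positions and promoters are RefSeq's on GRCm38. All 7 markers are named, as may be any gene of the family and pathway lists, some of which are counted in their lists but not reported here by name. Of cell type lists mainly sums are given, and Cd3e and Amy2b were named after their values were seen. The members and lists were chosen with earlier results of these data known. Alternatives changed the pseudocount (to 0.1), the filter (none, or 5 FPKM), the scaling, the variance prior and the library weights, added the replicate number or the acinar level as a term, or left libraries out. Scaling without acinar and insulin rows was added after seeing the data. Other tools were Python 3.11.15, pandas 2.3.3, scipy 1.17.1 and matplotlib 3.10.9.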

Additional observations from a re-analysis of the deposited data

How the results depend on the processing

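All 18 alternatives for Irx1 and Irx2 and all 19 for Ttr, Tmem27 and Gcg gave a negative log2 difference, and all 19 for Gc a positive one. For Dpp4 16 were negative and 3 positive. Irx1 was called lower in 6 of these, Irx2 in 6, Ttr in 3, Tmem27 in 7, Dpp4 in 1 and Gcg in 7, and Gc was called higher in 3. The number of markers called lower, 3 as reported, was 0 with no filter on low values, under equal sums outside the acinar list (adjusted p of 0.051, 0.056 and 0.073 for Irx1, Irx2 and Tmem27), with acinar and insulin rows left out of the sums, with equal pan-endocrine means, with the acinar level as a covariate and in KO replicate 1 alone. The number came to 1 at a mean of at least 5 FPKM, where the Iroquois genes are not tested. Leaving out single libraries gave between 0 and 4 called lower and between 0 and 1 called higher. The number called higher was 1 with equal pan-endocrine means and in KO replicate 1 alone. Other alpha cell genes called lower numbered 3 as reported, 1 with equal pan-endocrine means, 5 in KO replicate 1 alone and between 2 and 6 with single libraries left out. The median of the tested markers, -0.41 as reported, was -0.27 at a mean of at least 5 FPKM, -0.19 with equal pan-endocrine means, -0.22 with the acinar covariate, -0.13 in KO replicate 1 alone and from -0.49 to -0.33 with single libraries left out. The count over all genes, 4657 as reported, was 3002 under equal sums outside the acinar list, 3022 with equal pan-endocrine means, 2874 with the acinar covariate, 3013 in KO replicate 1 alone and from 2482 to 5730 with single libraries left out. Slc38a5 turned to -0.58 in KO replicate 1 alone. Except for the filter and the left-out libraries, the cause of these changes was not tested.

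The libraries were not treated as paired. Deviations from the group means correlated at -0.21, -0.09 and 0.03 over genes for the same-numbered pairs and from -0.16 to 0.20 for the others. With 3 libraries per group these values depend on each other, and the acinar differences among KO libraries enter them. They therefore cannot show whether the replicate numbers pair the libraries. With the replicate block 1 marker was called lower, Tmem27 (adjusted p = 0.045), and Irx1 and Irx2 had adjusted p = 0.063 and 0.054. Depth limits the low genes most, Pou3f4 first and the Iroquois genes after it.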
